A study of Mus musculus with 18 samples.

Results

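The hypoxia response and glycolysis genes described here are a set of 34 mouse genes chosen by name, and all 34 were found by symbol among the 47729 gene identifiers of the deposited table. Livers came from mice that had undergone ischemia-reperfusion injury (IR), in which the blood supply of the liver is interrupted and then restored, or sham surgery. Each surgery was applied to wild-type, Il22-/- and Il22bp-/- mice, with 3 samples in each of the 6 combinations, hence 9 IR and 9 sham samples. The cytokine IL-22 signals to hepatocytes and epithelia, and IL-22BP, the product of Il22ra2, is a secreted receptor that captures it. The labels give no age, no sex and no length of ischemia or reperfusion, and they do not say in which cells the genes were deleted. RNA was taken from whole liver tissue, so fewer cells of a type and less RNA per cell cannot be told apart in any value below. The series was built to ask what IL-22 and IL-22BP do in acute liver injury, and the comparison made here is the one of surgery.

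Hypoxia-inducible factors (HIF) are transcription factors made of an oxygen-regulated alpha subunit and a stable beta subunit. When oxygen is present, prolyl hydroxylases modify the alpha subunit, which is then bound by the VHL ubiquitin ligase and degraded. When oxygen is scarce, the alpha subunit accumulates, enters the nucleus and binds a short DNA element near genes for glucose uptake, glycolysis, lactate export, angiogenesis, mitophagy and collagen maturation. Hepatocytes normally use liver isozymes suited to releasing and storing glucose, while most other cell types use the widespread isozymes that are also HIF targets. Regulation of the alpha subunits is mainly by protein stability, which RNA does not measure.

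The 18 libraries were headed IR1 to IR9 and W1 to W9. No header carries a genotype, so the 3 genotypes are mixed within each surgery and none was tested. The meaning of W is not spelled out, and it was read as sham by elimination, because 9 sham samples remain and only 6 samples were wild type. Il22 was at 0 in all 18 libraries. Il22ra2 lay between 29.9 and 56.0 normalized counts in IR7 to IR9 and W7 to W9 and between 0 and 1.02 in the other 12, and these values were used to assign no genotype. Whole reads were recovered from the table, with 10176617 to 12558179 reads per IR library and 10716890 to 12763837 per sham library. Correlations of log2 values over the 13875 genes kept ran from 0.909 to 0.979 between IR libraries, from 0.968 to 0.987 between sham libraries and from 0.798 to 0.910 across the surgeries.

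One imbalance runs through the comparison. All 9 sham libraries and IR3, IR6 and IR9 held 0 to 2 reads of the Y-linked genes Ddx3y, Uty, Kdm5d and Eif2s3y, together with 1596 to 4890 reads of Xist, the RNA of the inactive X chromosome. IR1, IR2, IR4 and IR7 held 719 to 1040 Y-linked reads and at most 12 Xist reads, and IR5 and IR8 held both kinds (859 and 596 Y-linked reads, 625 and 1295 Xist reads). In those 6 IR libraries surgery and the source of the Y-linked reads cannot be told apart. Results below are therefore also given for the 12 libraries without Y-linked reads (3 IR and 9 sham), a subset chosen after the data were seen. This subset also leaves out IR5, IR7 and IR8, which held the highest IR values of many members. A smaller difference in it therefore cannot be tied to the Y-linked reads.

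Cell type markers also moved with surgery. Of the hepatocyte markers, 8 of 10 were lower in IR, Hnf4a was higher, Pck1 was not called, and their summed level was 570865 to 921193 normalized counts in IR libraries, against 1981743 to 2395252 in sham libraries. Alb made up most of that sum, at a mean of 523199 in IR and 1780990 in sham. The median log2 fold change of the 10 markers was -0.71. Neutrophil markers were higher for all 9 of 12 that passed the expression filter, with sums of 362 to 4387 in IR and 66.3 to 138 in sham. Ly6g, Camp and Ltf did not pass, and Camp stayed at 0 to 2.98 normalized counts in IR and 0 to 1.98 in sham. Cholangiocyte markers rose for 4 of 5, led by Sox9 and Spp1, with sums of 850.0 to 14609 in IR and 373 to 744 in sham. Kupffer cell markers fell for 5 of 6 (Marco rose), lymphocyte markers for 6 of 6 kept and endothelial markers for 5 of 8 (Lyve1 rose), while stellate cell and fibroblast markers were split 5 higher and 3 lower and those of monocytes and macrophages 4 higher and 3 lower. Erythroid markers had 1 of 5 kept lower and none higher. The sole pancreatic acinar marker kept, Cela2a, was lower in IR. These counts stand beside 37.7% of all genes kept that were called higher and 36.7% called lower. The part of these marker shifts in the gene changes below was not tested.

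Most of the module rose in injured liver, while its 4 mitochondrial members fell. Of the 33 members that passed the filter, 21 were higher and 4 were lower in IR (limma, adjusted p below 0.05), while 8 did not pass the test. Epo, the hormone that drives red cell production, did not reach the filter, with 1 read in IR6 and 1 in W4. The background was large: of all 13875 genes kept, 37.7% were called higher and 36.7% lower. The members' share of higher calls was 63.6% and their share of lower calls 12.1%, and their median log2 fold change was 0.57, beside 0.02 for all genes. Rescaling the libraries to equal totals moved the median of all genes up by 0.23 log2 units and the share of calls that were higher to 61.7%, against 50.6% with the deposited scaling. Under that scaling 24 members were called higher and the same 4 members lower, beside 45.9% and 28.5% of all genes.

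A change of at least 2-fold was seen in 15 of the called members in the upward direction and in 2, Bnip3 and Pdk1, in the downward direction, beside 16.2% and 17.3% of all genes kept. All 9 IR libraries lay above all 9 sham libraries for 11 members and below them for 4, beside 18.6% and 19.1% of all genes kept. The other 10 members called higher overlapped between groups. In the 12 libraries without Y-linked reads 17 members were higher and 5 lower, beside 32.9% and 33.0% of all genes. Each of the 25 called members kept its direction in every other setting in which it was tested, and 21 of them were called in each of those. These were 31 other settings for 23 of them, while Adm and Pfkfb4 were not tested where a mean of at least 50 was required.

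**Figure D1:**
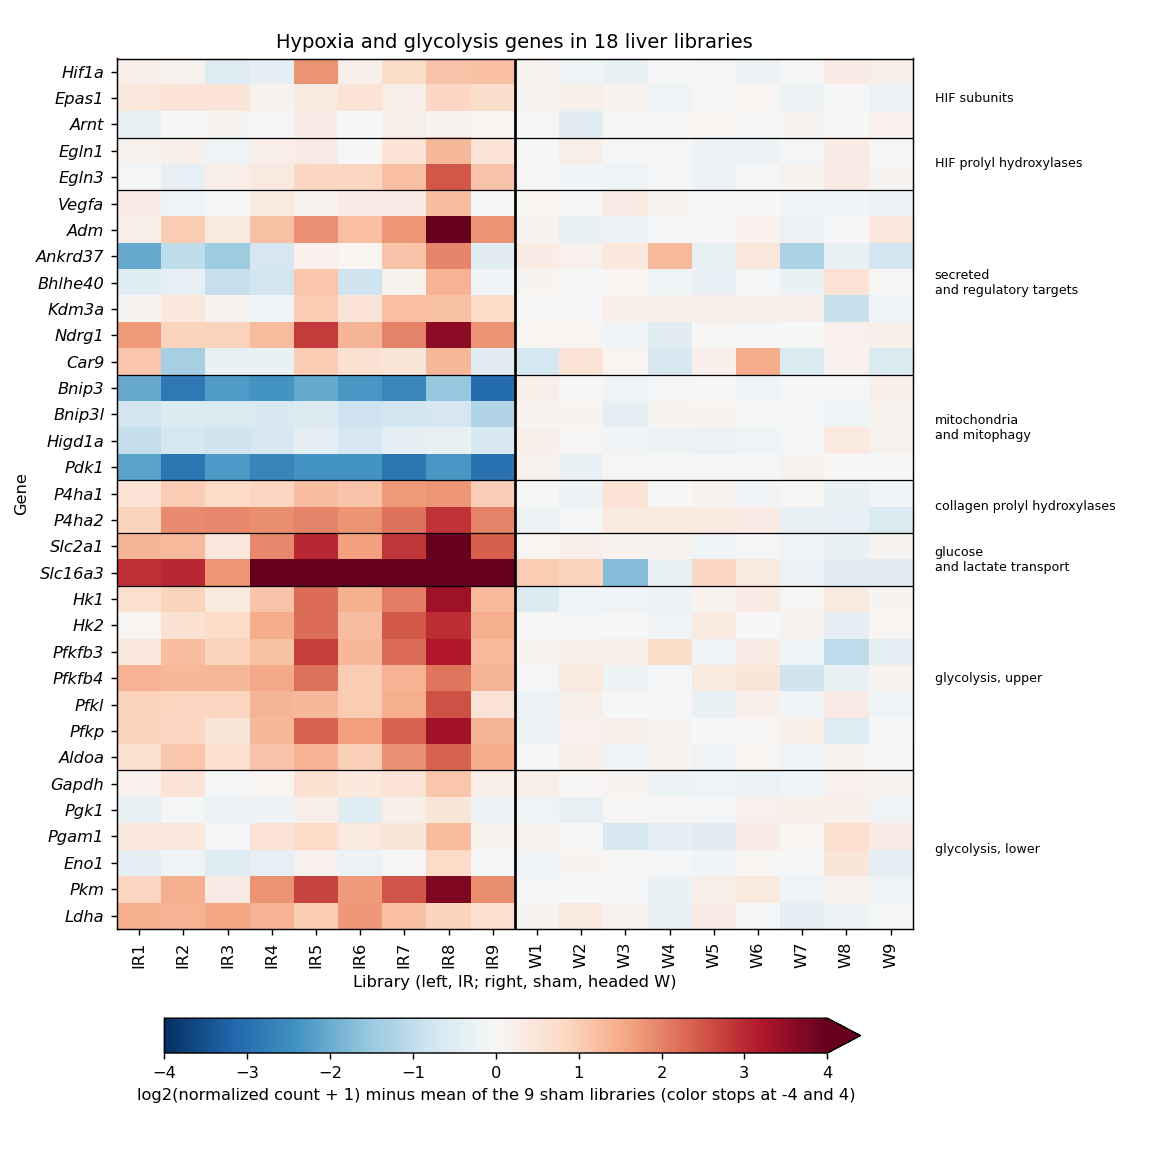
Heat map of the 33 members kept (rows, in groups by role) in the 9 IR libraries (left) and the 9 sham libraries headed W (right). Color is log2(normalized count + 1) minus the sham mean, red higher and blue lower, and stops at 4 in either direction; the transport and upper glycolysis rows are red in IR, the mitochondria and mitophagy rows are blue, and the column of IR8 is the reddest.

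**Figure D2:**
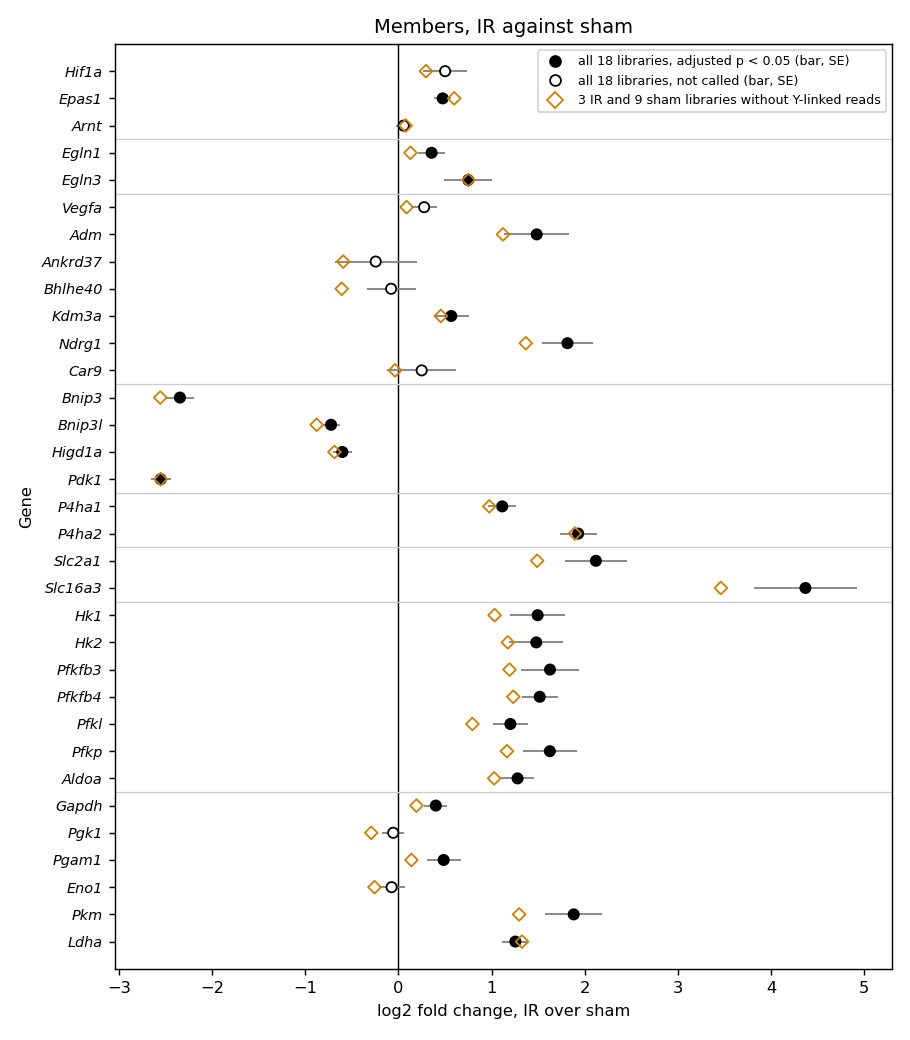
Log2 fold change of IR over sham for each member kept, with SE bars (filled circles called, open circles not called; n = 9 each), and the estimate from the 12 libraries without Y-linked reads (diamonds). Slc16a3 is the farthest right at 4.37, or 3.46 in those 12, and Pdk1 and Bnip3 lie farthest left, at -2.55 and -2.35 over all libraries.

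The promoters were searched for the core letters of the HIF-binding element, ACGTG or GCGTG. RefSeq windows on GRCm38.p6, from 250 bases before the start to the first 50 bases of the transcript, were at hand for 30 members; Epas1, Bhlhe40, Ndrg1 and Bnip3l had none. All 30 carried the core on either strand in at least 1 window, comprising 19 members called higher, 3 called lower, 7 not called and Epo. The share was 46.7% over all 27025 genes with a window and 65.6% over the 10521 of them among the genes kept. A match is a string of letters, no factor binding was measured, and the core was found in members that rose, fell or were not called. The windows of 4 members are shown, 2 that rose and 2 that fell, because their opposite changes carry the contrast within the module. Capitals mark the core, which reads CACGT or CACGC where it lies on the other strand; the overlapping palindrome CACGTG counts as 2 matches. They are chr11:120948817-120949116 on the plus strand for Slc16a3 (2 matches), chr7:46845554-46845853 on the plus strand for Ldha (7 matches), chr7:138909457-138909756 on the minus strand for Bnip3 (5 matches) and chr2:71872974-71873273 on the plus strand for Pdk1 (2 matches). Ldha and Pdk1 each had another window, not shown, with 2 matches for Ldha and 0 for Pdk1.
Slc16a3: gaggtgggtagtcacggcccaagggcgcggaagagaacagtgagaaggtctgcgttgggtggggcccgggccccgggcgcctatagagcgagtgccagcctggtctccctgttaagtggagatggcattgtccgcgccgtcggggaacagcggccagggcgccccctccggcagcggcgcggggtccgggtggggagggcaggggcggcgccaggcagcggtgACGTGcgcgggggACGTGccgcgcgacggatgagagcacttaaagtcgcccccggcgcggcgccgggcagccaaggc
Ldha: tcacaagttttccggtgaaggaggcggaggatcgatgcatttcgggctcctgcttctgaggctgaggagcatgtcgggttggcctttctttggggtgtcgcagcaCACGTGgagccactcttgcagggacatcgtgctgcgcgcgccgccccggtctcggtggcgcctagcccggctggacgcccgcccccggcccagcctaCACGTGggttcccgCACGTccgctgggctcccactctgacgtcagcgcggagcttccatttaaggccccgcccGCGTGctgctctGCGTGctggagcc
Bnip3: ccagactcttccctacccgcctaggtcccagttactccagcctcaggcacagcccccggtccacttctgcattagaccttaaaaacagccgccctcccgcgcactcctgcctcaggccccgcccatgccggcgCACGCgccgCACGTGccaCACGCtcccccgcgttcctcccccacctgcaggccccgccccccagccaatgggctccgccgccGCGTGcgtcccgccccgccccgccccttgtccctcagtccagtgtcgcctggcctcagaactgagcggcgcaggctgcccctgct
Pdk1: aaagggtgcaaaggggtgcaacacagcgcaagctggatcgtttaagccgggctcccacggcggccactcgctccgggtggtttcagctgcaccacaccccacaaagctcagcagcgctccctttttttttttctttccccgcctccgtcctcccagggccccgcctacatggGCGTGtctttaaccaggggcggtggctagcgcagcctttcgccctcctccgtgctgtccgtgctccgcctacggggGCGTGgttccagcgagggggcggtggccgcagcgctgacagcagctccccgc

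Of the 3 HIF subunits only Epas1 was called higher with limma over all libraries. Hif1a, which encodes the best-known oxygen-regulated alpha subunit, had 349 to 1700.1 normalized counts (median 569) in IR livers, against 413 to 620.0 normalized counts (median 486) in sham livers. The groups overlapped, with 4 IR libraries above and 2 below the whole sham range. Its log2 fold change of 0.50 (SE 0.24) missed the threshold (limma adjusted p = 0.0619), but it passed under edgeR (adjusted p = 0.0183), under DESeq2 (adjusted p = 0.00912), with equal totals (limma adjusted p = 0.0168) and without IR3 (limma adjusted p = 0.0151) or IR4 (limma adjusted p = 0.0220). Without Y-linked reads the difference was 0.29 (limma adjusted p = 0.289).

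Epas1, the alpha subunit of HIF2 that is abundant in liver and endothelium, rose by 1.39-fold. It had 1931 to 3052 normalized counts (median 2464) in IR livers, against 1465 to 2024 normalized counts (median 1789) in sham livers, and 8 of 9 IR libraries exceeded the highest sham library. The log2 fold change was 0.47 (SE 0.09, limma adjusted p = 9.76e-05) and 0.60 without Y-linked reads (limma adjusted p = 0.000203). Per kilobase of exon, the mean level of Epas1 was 436 normalized counts in IR and 312 in sham, above that of Hif1a at 134 in IR and 84.4 in sham. Arnt, the beta subunit, had 303 to 454 normalized counts (median 393) in IR and 273 to 416 normalized counts (median 382) in sham, a log2 difference of 0.06 that passed the test under equal totals alone (limma adjusted p = 0.0208, log2 difference 0.29).

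The HIF prolyl hydroxylases mark the alpha subunits for degradation. Of the 3, Egln1 and Egln3 belong to the module, are HIF targets themselves and were called higher, while Egln2, outside the module, had 704 to 1000.1 normalized counts (median 821) in IR and 703 to 1308 normalized counts (median 854) in sham and was not called (log2 fold change -0.10, limma adjusted p = 0.429). Egln3 had 119.9 to 845 normalized counts (median 269.6) in IR, against 129 to 189 normalized counts (median 145) in sham. IR8 was the highest and IR2 lay below every sham library. The log2 fold change of Egln3 was 0.75 (SE 0.26, limma adjusted p = 0.0124) and stayed at 0.75 without Y-linked reads. Egln1 had 267 to 756 normalized counts (median 363) in IR and 254 to 369 normalized counts (median 295) in sham, with a log2 fold change of 0.36 (limma adjusted p = 0.0344). That call was lost when IR7, IR9, W3, W5, W6 or W7 was left out (limma adjusted p from 0.0520 to 0.0622) and in the libraries without Y-linked reads (0.13, limma adjusted p = 0.453).

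Among 12 other HIF pathway regulators, 10 passed the filter, of which 6 rose and 2 fell (60% and 20%), beside 37.7% and 36.7% of all genes kept. Higher in IR, as log2 fold changes, were Cited2 at 1.26, Crebbp at 0.72, Siah2 at 0.65, Ep300 at 0.54 and Vhl at 0.54. Cited2 is an inhibitor that competes with HIF for the coactivators Crebbp and Ep300. Siah2 is a ubiquitin ligase separate from the VHL ligase. Rbx1, a RING subunit of the VHL ligase, was lower at -0.69. The largest of these differences was 2.40-fold, for Cited2, with 252 to 1563 normalized counts (median 427) in IR and 163 to 305 normalized counts (median 182) in sham.

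Secreted and regulatory targets split between clear risers and genes that did not pass. Ndrg1, a stress-response gene widely used as a hypoxia marker, had 217 to 1406 normalized counts (median 382) in IR livers, against 87.1 to 135 normalized counts (median 120.1) in sham livers. Every IR library was above every sham library, and the log2 fold change was 1.81 (SE 0.27, limma adjusted p = 4.56e-06). Adm encodes adrenomedullin, a vasodilator peptide. It had 19.9 to 293 normalized counts (median 41.3) in IR, against 14.3 to 23.7 normalized counts (median 17.3) in sham, with a log2 fold change of 1.48 (SE 0.35, limma adjusted p = 0.000672). Its IR8 value stood far above the other 8 IR libraries, which ended at 64.2, and without IR8 the log2 fold change was 1.17. Kdm3a, a histone demethylase, rose by 0.57 log2 units (limma adjusted p = 0.0109), and this call was lost without Y-linked reads (0.46, limma adjusted p = 0.0662).

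The other 4 of this group that passed the filter were not called. Vegfa, the main endothelial growth factor, had 1037 to 2701 normalized counts (median 1438) in IR and 993 to 1419.8 normalized counts (median 1142) in sham, with 5 of 9 IR libraries above the sham range. Its log2 difference of 0.28 missed the threshold (limma adjusted p = 0.0737) and passed it without IR2 (0.33, limma adjusted p = 0.0344), without IR9 (0.32, limma adjusted p = 0.0438), under DESeq2 (adjusted p = 0.0419) and with equal totals (limma adjusted p = 0.00432). Bhlhe40, a transcriptional repressor of the clock, had 608 to 3047 normalized counts (median 922) in IR and 913 to 1741 normalized counts (median 1173) in sham. Its log2 difference was -0.08 in all libraries, above 0 with equal totals, edgeR, DESeq2 and 3 of the single-library omissions, and -0.61 without Y-linked reads, where it was called lower (limma adjusted p = 0.00833). Ankrd37, an ankyrin-repeat gene, had 4.18 to 81.2 normalized counts (median 14.6) in IR and 7.76 to 50.3 normalized counts (median 22.5) in sham. Its log2 difference of -0.24 turned positive under edgeR and DESeq2 without passing either test. Car9, a membrane carbonic anhydrase, was near the detection limit with at most 11.2 normalized counts in IR and 12.4 in sham.

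**Figure D3:**
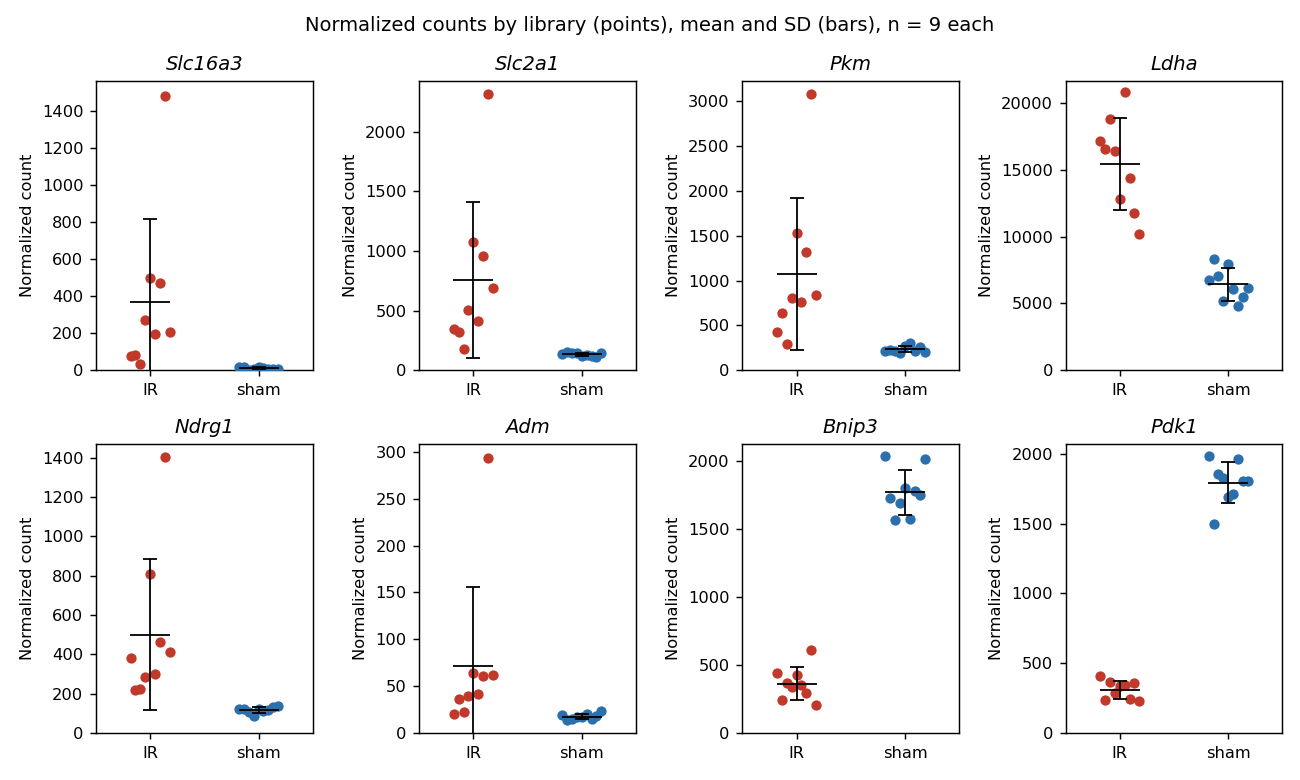
Normalized counts of 8 members in each library (IR left, sham right), with the mean and SD as bars (n = 9 each; the part of a bar below 0 is not drawn). Slc16a3, Slc2a1, Pkm, Ldha, Ndrg1 and Adm are higher in IR, with IR8 as the highest point in all of them but Ldha, and Bnip3 and Pdk1 are lower in IR with no overlap.

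All 4 members that act on mitochondria fell, and in each of them every IR library lay below every sham library. Pdk1, the kinase that inhibits pyruvate dehydrogenase and so keeps pyruvate out of the citric acid cycle, had 227 to 405 normalized counts (median 339) in IR livers, against 1495 to 1984 normalized counts (median 1806) in sham livers. It was 5.87-fold lower, with a log2 fold change of -2.55 (SE 0.11, limma adjusted p = 1.18e-13) and the same -2.55 without Y-linked reads. Bnip3, a receptor that marks mitochondria for mitophagy, had 206 to 612 normalized counts (median 351) in IR, against 1569 to 2035 normalized counts (median 1747) in sham. It was 5.09-fold lower, with a log2 fold change of -2.35 (SE 0.15, limma adjusted p = 2.99e-11). The promoters of both hold the core shown above, as do those of the 19 members called higher that had a window (Epas1 and Ndrg1 had none).

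The related mitophagy receptor Bnip3l and Higd1a, an inner-membrane protein of the respiratory chain, fell less. Bnip3l had 265 to 422 normalized counts (median 383) in IR, against 483 to 674 normalized counts (median 657) in sham, with a log2 fold change of -0.72 (SE 0.09, limma adjusted p = 5.35e-07). Higd1a had 238 to 377 normalized counts (median 291) in IR, against 388 to 601 normalized counts (median 443) in sham, with a log2 fold change of -0.60 (SE 0.10, limma adjusted p = 2.08e-05). With equal totals all 4 were still called lower, but 2 of them overlapped between groups. Of the 50-base windows of their annotated transcripts, 47.2% in Bnip3, 20.8% in Bnip3l and 24.4% in Higd1a also occur in other annotated genes, so these levels are uncertain to the extent that reads were split. Pdk1 shares none. Its relative Pdk4, a kinase of the same enzyme that responds to fasting, moved the other way. Pdk4 had 94.0 to 3887 normalized counts (median 778) in IR and 23.1 to 53.8 normalized counts (median 37.2) in sham. Its log2 fold change was 3.92 (limma adjusted p = 1.69e-06), and 2.88 without Y-linked reads. The kinases of this enzyme outside the module were split: Pdk2 was lower (log2 fold change -0.72, limma adjusted p = 0.00365) and Pdk3, like Pdk4, higher (0.48, limma adjusted p = 0.0378).

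The collagen prolyl hydroxylases, which let procollagen chains fold into a stable helix, both rose without overlap between groups. P4ha2 had 81.6 to 335 normalized counts (median 167) in IR livers, against 29.3 to 58.0 normalized counts (median 41.9) in sham livers, a log2 fold change of 1.93 (SE 0.20, limma adjusted p = 2.49e-08) that was 1.89 without Y-linked reads. P4ha1 had 172 to 395 normalized counts (median 234) in IR, against 93.3 to 169.8 normalized counts (median 115) in sham, a log2 fold change of 1.11 (SE 0.15, limma adjusted p = 9.51e-07). Stellate cell and fibroblast markers, whose cells produce much of the liver's collagen, moved in both directions: Col1a1 rose by 3.26 and Acta2 by 2.42 on the log2 scale, while Lrat, Rgs5 and Reln fell by 1.89, 0.87 and 1.03.

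The transport members had the largest rises of the module over all 18 libraries. Slc16a3, the exporter that releases lactate from glycolytic cells, had 34.3 to 1486 normalized counts (median 208) in IR livers, against 2.07 to 19.8 normalized counts (median 7.76) in sham livers. IR8 held the most and IR3 the least, and even IR3 exceeded the highest sham library. The log2 fold change was 4.37 (SE 0.55, limma adjusted p = 5.25e-07), or 20.7-fold. It was 5.04 under edgeR, 5.08 under DESeq2 and 3.46 without Y-linked reads (limma adjusted p = 8.08e-05), so its size depends on the tool and on the libraries used. Slc2a1, the widespread glucose transporter, had 179 to 2316 normalized counts (median 505) in IR, against 109 to 151 normalized counts (median 139) in sham, again without overlap. Its log2 fold change was 2.12 (SE 0.33, limma adjusted p = 8.75e-06) and 1.49 without Y-linked reads (limma adjusted p = 0.000142).

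All 7 upper glycolysis members, which carry glucose to the triose phosphates or set the rate of that flow, rose, with log2 fold changes from 1.20 to 1.63. The first step, phosphorylation of glucose, is carried out by hexokinases. Hk1 had 59.7 to 476 normalized counts (median 111) in IR, against 30.7 to 58.2 normalized counts (median 46.6) in sham, and Hk2 had 27.2 to 208 normalized counts (median 73.0) in IR, against 19.8 to 33.5 normalized counts (median 25.9) in sham. Hk1 was separated between the groups, and a single IR library of Hk2, IR1, fell within the sham range. Their log2 fold changes were 1.49 (SE 0.29, limma adjusted p = 0.000115) for Hk1 and 1.48 (SE 0.29, limma adjusted p = 0.000119) for Hk2.

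Pfkfb3 and Pfkfb4 make or remove fructose 2,6-bisphosphate, the strongest activator of phosphofructokinase. Pfkfb3 had 169 to 1125 normalized counts (median 304) in IR, against 60.3 to 207 normalized counts (median 132) in sham, and 8 of 9 IR libraries exceeded the sham range. Pfkfb4 had 25.7 to 59.8 normalized counts (median 33.4) in IR, against 6.66 to 17.6 normalized counts (median 11.9) in sham, with no overlap. Their log2 fold changes were 1.63 (SE 0.31, limma adjusted p = 7.80e-05) for Pfkfb3 and 1.52 (SE 0.19, limma adjusted p = 4.78e-07) for Pfkfb4. The phosphofructokinases Pfkl (liver form) and Pfkp (platelet form) and the aldolase Aldoa rose by 1.20, 1.63 and 1.28 log2 units, each without overlap. Aldoa was the most abundant of the 7 per kilobase of exon, at a mean of 901 normalized counts in IR and 346 in sham. In the 12 libraries without Y-linked reads all 7 were still called higher, with log2 fold changes from 0.79 to 1.23.

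Lower glycolysis was less uniform, with 4 of 6 members called higher. Ldha, the lactate dehydrogenase subunit that favors lactate formation, was the most abundant member per kilobase of exon and had 10175 to 20863 normalized counts (median 16425) in IR livers, against 4839.6 to 8353 normalized counts (median 6179) in sham livers. No IR library overlapped the sham range, and the log2 fold change was 1.25 (SE 0.14, limma adjusted p = 8.76e-08). It was 1.33 without Y-linked reads (limma adjusted p = 4.71e-05) and 1.30 without IR8, whereas 18 of the 21 members called higher had a smaller estimate without Y-linked reads. Those 12 libraries also leave out IR8, which held the highest IR value for 26 of 33 members. The part of IR8 and that of the Y-linked reads in the smaller estimates cannot be told apart. Pkm, the pyruvate kinase of most tissues, had 291 to 3081 normalized counts (median 806) in IR, against 191 to 305 normalized counts (median 219) in sham, with 8 of 9 IR libraries above the sham range. Its log2 fold change was 1.88 (SE 0.31, limma adjusted p = 1.45e-05) and 1.29 without Y-linked reads (limma adjusted p = 0.000221).

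The enzymes between aldolase and pyruvate kinase had smaller differences. Gapdh had 467 to 1023 normalized counts (median 641) in IR and 406 to 568 normalized counts (median 498) in sham (log2 fold change 0.40, limma adjusted p = 0.00651). Pgam1 had 42.1 to 106 normalized counts (median 60.7) in IR and 28.0 to 70.2 normalized counts (median 46.6) in sham (log2 fold change 0.48, limma adjusted p = 0.0206). Both calls were lost without Y-linked reads, at 0.19 (limma adjusted p = 0.192) for Gapdh and 0.14 (limma adjusted p = 0.628) for Pgam1. Pgk1 and Eno1, a kinase that makes ATP and the enolase, had log2 differences of -0.06 and -0.07 that were not called and turned positive, at 0.18 and 0.17, with equal totals. Parts of these genes also occur in other annotated genes. The share of 50-base windows found in other genes was 53.9% for Pgk1, 36.2% for Pgam1, 26.0% for Eno1, 25.8% for Pkm and 25.1% for Gapdh. For Ldha it was 9.26%. The levels of all these genes are uncertain where reads were split.

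Ratios of paired isozymes or transporters were formed within each library, so that library scaling hardly enters. The ratio of Slc2a1 to Slc2a2, the liver glucose transporter, rose 36.9-fold, with a median per kilobase of exon of 1.22 in IR livers and 0.0350 in sham livers. That of Pkm to Pklr, the liver pyruvate kinase, rose 13.4-fold, with medians of 0.715 in IR and 0.0648 in sham. Ldha to Ldhb, the heart form of lactate dehydrogenase, rose by 2.58 log2 units, with medians of 868 in IR and 118 in sham, so Ldha far exceeded Ldhb in both. Ldhb was low, at 4.72 to 14.1 normalized counts in IR and 18.5 to 29.9 in sham. The rise was 2.30 with a pseudocount of 5 and 2.63 with 0.5. In these 3 ratios all 9 IR libraries exceeded all 9 sham libraries, and the exact 2-sided permutation test gave p = 4.11e-05, the smallest that 48620 regroupings can give (adjusted p = 6.17e-05 over the 6 ratios computed). Slc2a1 and Ldha each lay wholly above sham, and Slc2a2 and Ldhb wholly below it. For these 2 pairs the non-overlap and p therefore follow from the single genes and add no separate support. The pairs were also chosen with earlier results known.

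Pfkp relative to Pfkl, both of which rose, shifted by 0.42 log2 units with overlapping groups, which missed the threshold (exact permutation p = 0.0623) and passed it when IR1, IR2, IR3 or IR4 was left out (exact permutation adjusted p from 0.0186 to 0.0425). Without Y-linked reads the ratios of Slc2a1 to Slc2a2, Pkm to Pklr and Ldha to Ldhb kept their direction with differences from 2.42 to 4.60 log2 units, and their adjusted exact permutation p was 0.00545 each. For Slc2a1 to Slc2a2 and Ldha to Ldhb this again follows from the single genes.

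**Figure D4:**
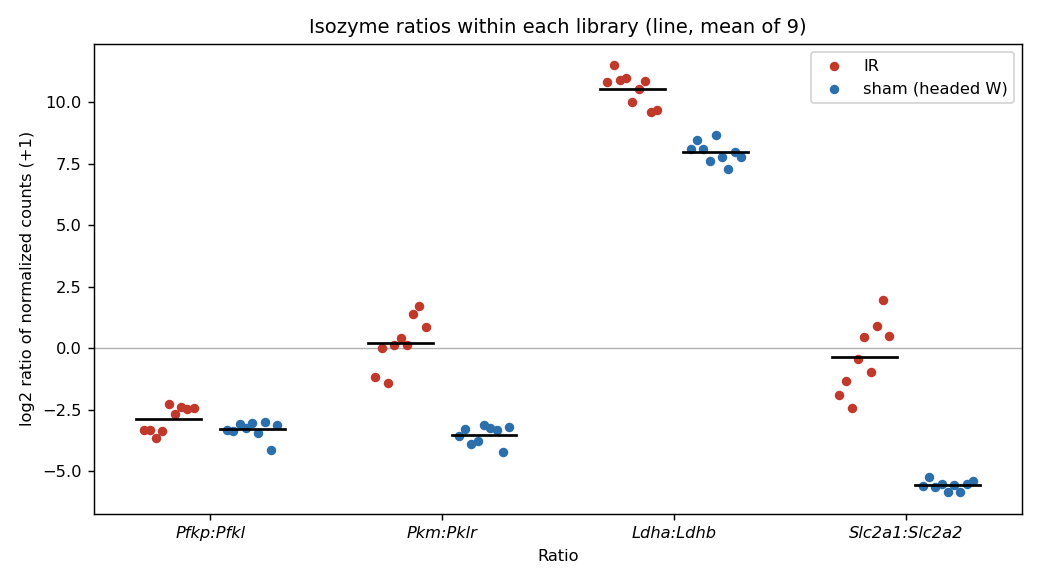
Log2 ratio of normalized counts (+1) of 4 isozyme or transporter pairs in each library (IR left in each pair, sham right; lines, means of 9). IR lies above sham without overlap for Pkm:Pklr, Ldha:Ldhb and Slc2a1:Slc2a2 and overlaps it for Pfkp:Pfkl.

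Both sides of these ratios moved. Of 24 other glycolysis and pyruvate genes, 22 passed the filter, of which 11 were higher and 8 lower. These shares were 50% and 36.4%, beside 37.7% and 36.7% of all genes kept, so the lower share was near that of all genes. Without IR8 the counts were 9 and 8 (40.9% and 36.4%), beside 37.2% and 36.6% of all genes. In the libraries without Y-linked reads they were also 9 and 8, beside 32.9% and 33.0% of all genes. Slc2a2 had 488 to 1276 normalized counts (median 784) in IR livers, against 4982 to 7109 normalized counts (median 6637) in sham livers, 8.49-fold lower (limma adjusted p = 4.37e-13). Pklr had 462 to 1126 normalized counts (median 738) in IR, against 1905 to 4747 normalized counts (median 2567) in sham, 3.64-fold lower (limma adjusted p = 7.68e-09). Ldhb fell by 1.33 on the log2 scale. The 10 hepatocyte markers had a median log2 change of -0.71. Among the larger falls were -1.80 for Alb, -1.39 for Ttr and -1.44 for Cps1, while Hnf4a rose by 0.72.

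Among the risers of this list, Hkdc1, a hexokinase-domain gene, had 0.979 to 42.5 normalized counts (median 24.5) in IR and 0 to 2.22 normalized counts (median 1.04) in sham (log2 fold change 3.34, limma adjusted p = 5.51e-06), and 1.83 without Y-linked reads. Slc2a3, the high-affinity glucose transporter of neurons and leukocytes, had 12.6 to 111 normalized counts (median 25.5) in IR and 2.25 to 11.4 normalized counts (median 6.66) in sham (log2 fold change 2.15, limma adjusted p = 3.71e-05).

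Hypoxia targets outside the module also moved in both directions, mostly upward. Of 31 such genes 30 passed the filter, of which 20 rose and 6 fell, with a median log2 fold change of 1.02. These shares were 66.7% and 20%, beside 37.7% and 36.7% of all genes kept. Without Y-linked reads the counts were 16 and 4 (53.3% and 13.3%), beside 32.9% and 33.0% of all genes. Lox, which cross-links collagen, rose by 3.49, Nfil3, a transcription factor of the clock, by 3.25, Hilpda, a lipid droplet protein, by 2.97, Igfbp1, a secreted binder of insulin-like growth factors, by 2.78, and Gys1, the muscle glycogen synthase, by 2.18 log2 units. For each of these 5 every IR library exceeded every sham library, as was so for 18.6% of all genes kept. The call held in each setting in which the gene was tested (Lox was not where a mean of at least 50 was required). These genes were named for their large changes in these same data, so neither result adds separate support. Hilpda was 1.91 without Y-linked reads.

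**Figure D5:**
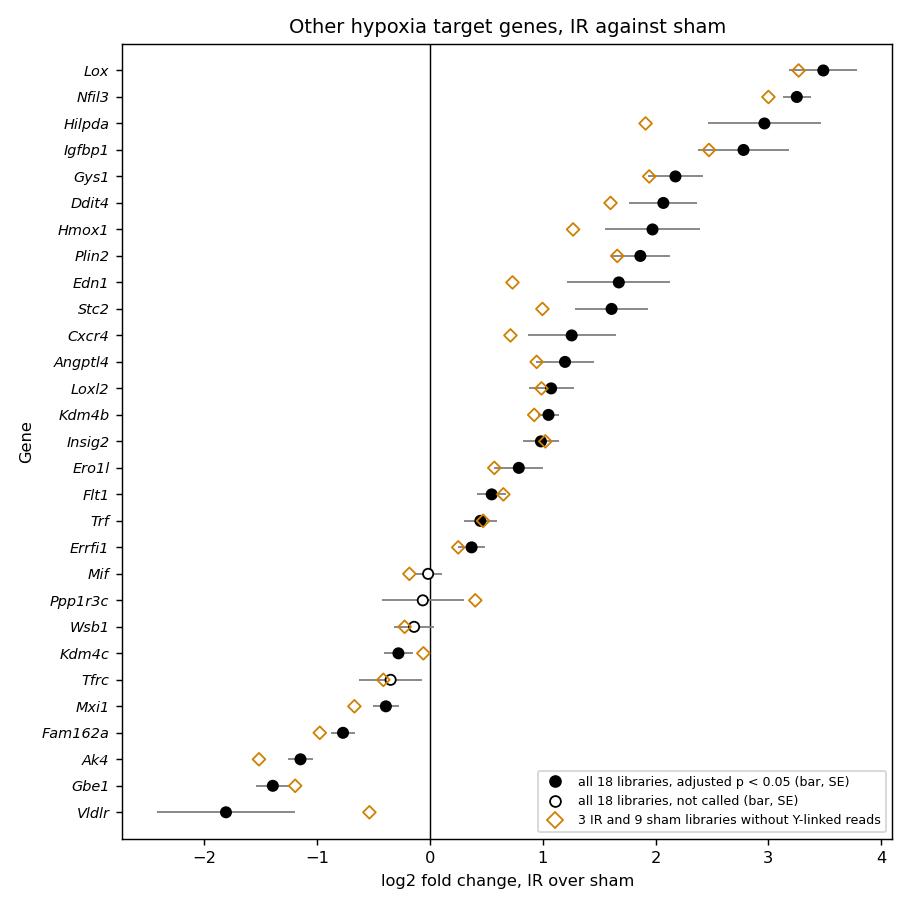
Log2 fold change of IR over sham for other hypoxia target genes kept, with SE bars (filled circles called, open circles not called; n = 9 each), and the estimate from the 12 libraries without Y-linked reads (diamonds). Lox, at 3.49, lies farthest right of the genes drawn, and the 6 genes called lower lie left of 0.

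The members varied more among IR livers than among sham livers. The coefficient of variation was larger in IR for 32 of the 33 members kept, all but Car9, with a median of 37.1% in IR and 15.2% in sham. All genes shared this direction in part: it was larger in IR for 73.6% of 13861 genes with a value in both groups, with medians of 24.5% in IR and 16.3% in sham. IR8 held the highest IR value for 26 of 33 members (78.8%), beside 20.3% of all genes kept. IR3 was the lowest for 11 members and IR1 for 9. IR8 also had the lowest median correlation with the other IR libraries, at 0.941, and without it 21 members were called higher and 4 lower, beside 37.2% and 36.6% of all genes. Without both IR5 and IR8, the libraries with Xist and Y-linked reads, 18 members were higher and 5 lower, beside 36.6% and 36.2% of all genes. There Egln1, Kdm3a and Pgam1 lost their calls (limma adjusted p from 0.0518 to 0.0892) and Bhlhe40 was called lower (limma adjusted p = 0.0103).

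Neutrophil and other cell type markers varied along with many members. IR5, IR7 and IR8 had the highest neutrophil sums, at 2778, 2517 and 4387 normalized counts, and IR3 the lowest at 362. The same libraries had the highest cholangiocyte, monocyte and macrophage, and erythroid sums, while the other marker lists were ordered otherwise. IR3 was also the lowest for cholangiocyte (850.0) and erythroid (145.9) sums. Of the 33 members, 17 (51.5%) had their 3 highest IR values in IR5, IR7 and IR8, beside 803 of 13875 genes (5.79%). They included Slc16a3, Slc2a1, Hk1, Hk2, Pfkfb3, Pfkp, Pkm and Ndrg1, but not Ldha, Aldoa or any of the mitochondrial members except Higd1a. IR5 and IR8 are also the libraries with both Xist and Y-linked reads. The part of RNA from any of these cell types in these values was not tested.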

How the data were processed

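RNA from liver tissue of 18 samples was sequenced. Trimmomatic 0.33, STAR 2.5.0a, DESeq2 1.14 and the genome GRCm38 come from the submitters' processing notes; no read counter or annotation is given in the sources used here. The deposited table holds one signal value per gene and library, a read count that the authors had scaled with DESeq2 size factors, per the title of the table and its values. Division by each library's step gave whole reads for 100% of values in every library, within 0.01 of a whole number.

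Gene identifiers were matched to GENCODE vM21 symbols (47224 of 47729). Genes with a mean of at least 5 over all libraries were kept (13875). IR and sham libraries were compared with limma 3.58.1 in R 4.3.3 on log2(value + 1) with a mean trend and no covariate, and p-values were adjusted by Benjamini-Hochberg over all genes kept, so fold changes are on that scale and understate those of low genes. A gene is called at an adjusted p below 0.05. The fit was tested on simulated data. The labels tie no sample to a named animal, so p-values measure the spread between these libraries. On the whole reads edgeR 4.0.16 (quasi-likelihood) called 5301 genes higher and 5080 lower and DESeq2 1.42.0 called 5376 and 5021, against 5224 and 5095 with limma. Ratios were compared with an exact 2-sided permutation test.

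All members may be named; of each other list the text names the 6 called genes with the largest absolute log2 fold change and the liver isozymes, except a few genes and ratios that are not reported here, and of the marker lists those that lead, lie near 0 or go against their list. Egln2, Pdk2 and Pdk3 are also named, as relatives of members. The members, lists and tests were chosen with earlier results of these data known. The subsets by Y-linked and Xist reads, and several repeats of the non-overlap and list counts, were chosen after the data were seen. The other alternatives were the pseudocount, the filter, 3 scalings, robust variance, a block on the header number, the count tools and leaving out each library. Promoter sequences are RefSeq's for GRCm38.p6, and gene lengths are those of GENCODE vM21 exons. Shared 50-base windows were counted over annotated transcripts. Strand use in counting is not given in the sources used here, so reads of overlapping antisense genes cannot be told apart.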

Additional observations from a re-analysis of the deposited data

Results flagged for a closer look

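For each member and each surgery, the highest or lowest of the 9 libraries was compared with its nearest neighbor as a share of the group's range. Of 68 such groups, 24 had a library set apart, 16 in IR and 8 in sham. The cutoff sets apart about 1 in 20 groups by chance where values are normally distributed. These were unlogged counts, so that rate may not hold here and no excess over chance is read from it. Members share libraries, so the groups are not independent.

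IR8 was the library set apart in 14 of the 24, each time as the highest. Its normalized counts were 756.4 for Egln1, 845 for Egln3, 2701 for Vegfa, 293.3 for Adm and 1406 for Ndrg1, against highest values of 443, 346.5, 1523, 64.16 and 806.3 in the other IR libraries. It also stood apart for P4ha2 at 335, Slc2a1 at 2316, Slc16a3 at 1486, Hk1 at 476.5, Pfkl at 2221, Pfkp at 399.8, Gapdh at 1023, Eno1 at 2537 and Pkm at 3081. Among IR libraries, IR8 had the highest marker sums of neutrophils, monocytes and macrophages, endothelium, stellate cells and fibroblasts, and erythroid cells. It also had reads of both Xist and Y-linked genes, and the part of all these in its values was not tested. Without IR8 the log2 fold changes were 1.87 for Slc2a1, 4.02 for Slc16a3 and 1.65 for Pkm, beside 2.12, 4.37 and 1.88 with it. The other IR cases were Bnip3l, low in IR9 at 264.6, and Epo, at 0.9186 in IR6 and 0 in the other 8.

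Among sham libraries, W8 was high for Bhlhe40 at 1741 and Eno1 at 2073 and low for Kdm3a at 70.22. W4 was high for Ankrd37 at 50.35 and for Epo at 1.049, with Epo at 0 in the other 8. W2 was low for Arnt at 272.6, W6 high for Car9 at 12.43 and W3 high for P4ha1 at 169.8. Epo rests on 1 read in each surgery.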

How the results depend on the processing

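Counts called over all genes, all members and each of the 3 other pathway lists, and counts of members whose groups did not overlap, stayed within 1.5 times their main value in all but 2 cases: 7 other glycolysis genes were higher when a mean of at least 50 was required (17 tested, against 11 called of 22), where fewer genes were tested, and 2 members lay wholly below sham under equal totals, against 4; the cause of that was not tested. Smaller groups moved further: without Y-linked reads 1 HIF prolyl hydroxylase of the module was higher (2 in all libraries), 2 lower glycolysis members were higher (4), 1 secreted or regulatory target was lower (0) and 3 erythroid markers were lower (1), with equal totals 3 HIF subunits (1) and 1 erythroid marker (0) were higher, and without IR8 no endothelial marker was higher (1). Egln1, Kdm3a, Gapdh and Pgam1 lost, and Hif1a, Arnt, Vegfa and Bhlhe40 gained, a call in at least 1 setting. Members that were not called changed sign as follows, with causes not tested: Ankrd37 to 0.0941 under edgeR and 0.10 under DESeq2; Bhlhe40 to 0.16 with equal totals, 0.12 under edgeR and 0.14 under DESeq2, and between -0.26 and 0.0268 when each library was left out; Car9 to -0.0367 without Y-linked reads and -0.0129 without IR5 and IR8; and Pgk1 to 0.18 and Eno1 to 0.17 with equal totals. Leaving out each library moved the Pfkp to Pfkl ratio between 0.32 and 0.52 and brought it past the threshold without IR1, IR2, IR3 or IR4. The other genes named by rule kept their calls in each setting in which they were tested. Lox, Hkdc1, Slc2a3 and Ldhb were not tested where a mean of at least 50 was required. Apart from genes named for a ratio, they were chosen for large changes in these same data, so this adds no separate support.

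IR and W headers share the numbers 1 to 9, but equal numbers did not pair the libraries: their deviations from the group means correlated between -0.0691 and 0.121, and only number 8 was closest to its own partner. With that number as a replicate block limma called 5170 genes higher and 5048 lower, and 22 members higher and 4 lower, Hif1a being the gain (limma adjusted p = 0.0302). Depth limits Epo and Car9, which rest on few reads.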
